A study of Mus musculus with 6 samples.

Results

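The genes of cholesterol and fatty acid synthesis were followed in 3 mouse embryonic stem cell lines, ♂M-1, ♂M-3 and ZM-1. The set held 31 named genes: the enzymes that turn acetyl-CoA into cholesterol, the proteins that sense and move sterol, and the enzymes that make, lengthen and desaturate fatty acids. A gene was represented by its probe set with a single symbol in the array's annotation, and where there were several, by the one with the highest mean over the 6 arrays. In this way 30 of the 31 genes were found among the 19938 genes measured in the series. Acat2 was not analysed here. All 3 lines were labelled as made by chromosome transfer and were grown on gelatin with LIF and with PD0325901 and CHIR99021, which block MEK and GSK3β, so every group shared LIF and both inhibitors. Each line had 2 biological repeats. The labels give neither the meaning of the ♂M and ZM prefixes nor a strain, and each group is a single line, so what sets a line apart cannot be told from what sets its type apart.

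Cells make cholesterol from acetyl-CoA through mevalonate, farnesyl diphosphate, squalene and lanosterol, and the same acetyl-CoA feeds fatty acid synthesis. When sterol in the endoplasmic reticulum is low, the escort protein Scap carries the SREBP precursors, products of Srebf1 and Srebf2, to the Golgi, where they are cut to release transcription factors that switch on both pathways. When sterol is high, Insig proteins hold Scap back, and Insig1 is itself an SREBP target. Dividing stem cells rely on both pathways for new membrane.

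The values were linear intensities, with 1 value for every probe set in an array. The medians of the 6 arrays lay between 67.2 and 71.3 and their lower quartiles between 23.8 and 25.1. Markers given as higher or lower passed the limma test described below at an adjusted p below 0.05. For ♂M-3 against ZM-1, 8.66% of all genes were higher and 7.20% lower, and for ♂M-1 against ZM-1 1.89% and 2.53%. Among the 8340 genes at least as bright as the lowest member, 15.13% were higher and 6.94% lower in ♂M-3 than in ZM-1. The 10 embryonic stem cell markers measured here all lay above the median in every array. Their summed intensity was 23950.3 to 24873 in ♂M-1, 26223 to 26969.9 in ♂M-3 and 23749.7 to 24075 in ZM-1, and 3 of the 10, Zfp42 among them, were higher in ♂M-3 than in ZM-1. Markers of other cell types were also read. The summed intensity of 13 fibroblast markers was 8932 to 9199 in ♂M-1, 7772 to 7809 in ♂M-3 and 9335 to 9338 in ZM-1. Vim was the largest part of each sum and was not called in any pair. It read 4905 and 5487 in ♂M-1, 5254 and 5381 in ♂M-3, and 5004 and 5133 in ZM-1. Of the 13 markers, 11 were lower and 1 higher in ♂M-3 than in ZM-1. In ♂M-1, 9 were higher and 0 lower than in ♂M-3, beside 3.22% and 3.32% of all genes. The 4 hepatocyte markers, Alb among them at 14.8 to 17.3, all lay below the median in every array. Of the 6 adipocyte markers 1 or 2 lay above it, and in ♂M-3 against ZM-1 Lpl was higher and Adipoq, Fabp4 and Plin1 lower. Of 4 blood cell markers 3 were lower in ♂M-3 than in ZM-1 and 2 lower in ♂M-1. The 16 primitive and visceral endoderm markers, cells that make lipoproteins, summed to between 1377 and 1485. In cultures measured in bulk, fewer cells of a type and less RNA per cell cannot be told apart.

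Promoter windows show what the members have in common outside the array values. Windows of 300 bases, from 250 before to 50 after the start site, were taken from RefSeq (GRCm38.p6) for 23 of the 30 measured members. Stard4, Scd1 and Scd2, which are 3 of the 6 members called between lines, and Fdps, Fdft1, Sqle and Fads1 were not matched. They were searched on both strands for TCACNCCAC, a sterol regulatory element core, for CCAAT, the core of the site for NF-Y, which works beside SREBP, for GGGCGG, the Sp1 core, and for the E-box CACGTG. None of the 4 motifs contains another. A gene was counted once, where any of its windows held the motif. CCAAT stood in 19 of the 23 members (82.6%), against 43.9% of 6795 genes with a window whose level was at least that of the lowest member, and 41.06% of all 27025 genes with a window. GGGCGG also stood in 19 (82.6%), against 73.3% of the 6795 genes and 38.2% of all genes with a window. CACGTG stood in 5 (21.7%), against 12.9% and 8.09%, and TCACNCCAC in 1, Hmgcs1, against 1.3% and 1.44%. A match describes the letters of the window and is not a binding site.

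Both Hmgcs1 and Mvk, early enzymes of the mevalonate pathway, are shown because Hmgcs1 alone held the sterol element core and Mvk held the most CCAAT motifs of any member window, 5. Tm7sf2 and Dhcr7, late enzymes of cholesterol synthesis, are shown because they passed the test between lines and had a window. Capitals mark TCACNCCAC and CCAAT on either strand, so that ATTGG is CCAAT on the other strand. The windows are chr13:119690101-119690400, plus strand, for Hmgcs1, chr5:114444019-114444318, plus strand, for Mvk, chr19:6067801-6068100, minus strand, for Tm7sf2, and chr7:143829964-143830263, plus strand, for the Dhcr7 window, of 3 in the table, that held CCAAT, each written 5′ to 3′ in the direction of the gene.
Hmgcs1: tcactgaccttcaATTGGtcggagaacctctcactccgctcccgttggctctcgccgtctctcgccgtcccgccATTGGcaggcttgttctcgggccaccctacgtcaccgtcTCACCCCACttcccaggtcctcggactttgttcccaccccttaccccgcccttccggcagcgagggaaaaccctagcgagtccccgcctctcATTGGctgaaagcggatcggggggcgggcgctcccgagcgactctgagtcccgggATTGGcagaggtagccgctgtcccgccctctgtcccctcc
Mvk: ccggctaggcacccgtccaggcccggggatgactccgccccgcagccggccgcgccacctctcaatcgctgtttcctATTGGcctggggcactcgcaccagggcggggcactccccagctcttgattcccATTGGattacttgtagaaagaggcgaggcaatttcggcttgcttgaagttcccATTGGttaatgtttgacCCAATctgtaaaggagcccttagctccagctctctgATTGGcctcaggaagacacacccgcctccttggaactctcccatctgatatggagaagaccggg
Tm7sf2: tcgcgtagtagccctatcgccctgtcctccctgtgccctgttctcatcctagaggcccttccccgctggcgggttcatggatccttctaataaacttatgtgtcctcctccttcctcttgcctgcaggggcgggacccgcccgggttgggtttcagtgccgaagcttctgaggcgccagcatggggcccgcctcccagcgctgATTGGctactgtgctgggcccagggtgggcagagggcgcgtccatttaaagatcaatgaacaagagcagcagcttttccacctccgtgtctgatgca
Dhcr7: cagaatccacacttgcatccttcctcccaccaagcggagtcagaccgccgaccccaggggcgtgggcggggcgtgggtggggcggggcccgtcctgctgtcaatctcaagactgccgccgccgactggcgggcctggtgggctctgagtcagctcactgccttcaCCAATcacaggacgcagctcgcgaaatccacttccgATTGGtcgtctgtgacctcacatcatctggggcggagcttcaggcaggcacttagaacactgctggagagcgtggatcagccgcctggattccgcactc
The Hmgcs1 window held 4 CCAAT motifs beside its sterol element core, the Dhcr7 window 2 and the Tm7sf2 window 1.

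The pathway was expressed in all lines and differed little between them. The mean intensity of each of the 30 measured members lay above the median over all genes, 94.6. Over the 30 members, the ratio of the highest to the lowest line mean was between 1.05 and 1.47, with a median of 1.17, and the largest ratio between 2 repeats of a line had a median of 1.12. In 29 of the 30 members the brightest of the 6 arrays was less than 1.5 times the dimmest, the exception being Scd1. ♂M-3 had the highest line mean in 20 of 30 members (66.7%), against 38.5% of all genes, and ZM-1 the lowest in 17 (56.7%), against 35.3%. These shares were not computed for genes at least as bright as the lowest member. Such genes had a median log2 difference of 0.07 for ♂M-3 against ZM-1, beside 0.00 over all genes. Over the members, arrays of different lines differed by a root mean square of 0.15 to 0.21 log2 units for ♂M-1 and ZM-1, 0.17 to 0.22 for ♂M-1 and ♂M-3, and 0.20 to 0.28 for ♂M-3 and ZM-1, against 0.10 to 0.14 between repeats. Over all genes it was 0.219 to 0.298 between arrays of different lines and 0.135 to 0.164 between repeats.

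**Figure D1:**
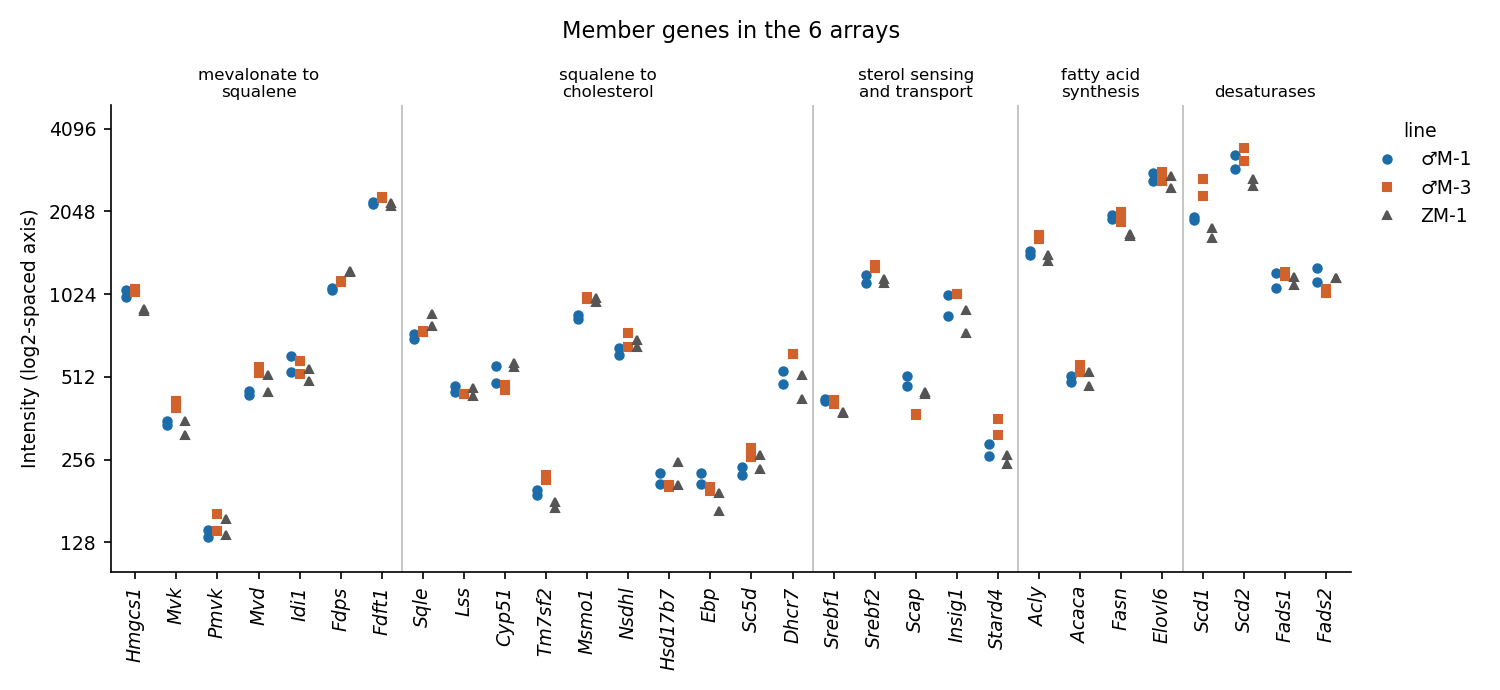
Intensity of the 30 measured members in each of the 6 arrays, on a log2-spaced axis, grouped by role; each symbol is 1 array and each colour a line. The 3 lines lie close together in most genes, and the ♂M-3 symbols stand clear above both other lines in genes such as Scd1, Dhcr7 and Tm7sf2 and clear below them in Scap. Heights of different genes are not comparable, since probe sets differ in brightness.

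Differences were tested with limma on log2 of the intensity plus 1, with 1 mean per line over all 6 arrays and Benjamini-Hochberg adjustment over the 19938 genes. A gene is called here at an adjusted p below 0.05, and fold changes are on the scale of the intensity plus 1. Between ♂M-1 and ZM-1, 0 of 30 members were called, against 1.89% of all genes called as higher in ♂M-1 and 2.53% as lower. In the same limma fit 7 members had an unadjusted p below 0.05, 4 of them higher, beside 20.0% of all genes. Between ♂M-3 and ZM-1, 5 members were higher in ♂M-3 (16.7%) and 0 lower, against 8.66% and 7.20% of all genes. Among the 8340 genes at least as bright as the lowest member, Pmvk, 15.13% were higher in ♂M-3 and 6.94% lower. The members' share of higher calls was near that of these genes, which are named below as bright genes or genes as bright as the members. They were set by this lower bound alone, 144.9, and were not matched in level to the members, whose median was 609.9, or to the further lists. For ♂M-3 against ZM-1 an unadjusted p below 0.05 was reached by 13 members, 11 of them higher, beside 5980 of the 19938 genes. Between ♂M-1 and ♂M-3, 1 member was higher and 1 lower in ♂M-1, against 3.22% and 3.32% of all genes. There 11 members reached an unadjusted p below 0.05, 2 of them higher, beside 19.8% of all genes. These 3 backgrounds from all genes, both directions together, also stand beside every later count at an unadjusted p below 0.05, each for its own pair. The shares of 3.22% higher and 3.32% lower likewise stand beside every later call between ♂M-1 and ♂M-3. Among the genes at least as bright as the lowest member they were 4.46% and 4.8%.

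The 5 members higher in ♂M-3 than in ZM-1 were Scd1, Dhcr7, Stard4, Scd2 and Tm7sf2, and Scap and Scd1 separated ♂M-1 from ♂M-3. The median log2 difference over the 30 members was 0.05 for ♂M-1 against ZM-1 and 0.12 for ♂M-3 against ZM-1. Beside these stood 0.03 and 0.07 over genes at least as bright as the lowest member, and −0.01 and 0.00 over all genes. For ♂M-1 against ♂M-3 it was −0.09, beside −0.04 and −0.02. The sign of these medians was kept after median centring and after quantile normalization of the arrays, but the size of those against ZM-1 was not. The median for ♂M-1 against ZM-1 was 0.10 after the first and 0.01 after the second, and that for ♂M-3 against ZM-1 was 0.18 and 0.06. That for ♂M-1 against ♂M-3 was −0.10 and −0.08. The comparisons share arrays, so their values are given side by side and not as separate evidence. The count for ♂M-3 against ZM-1 was 2 without ♂M-3 replicate 1, 1 without ♂M-3 replicate 2 and 1 without ZM-1 replicate 2. Scd1 was among the called members in each of these, and it alone was called when all 35556 probe sets entered the fit. For ♂M-1 against ♂M-3 the count was 1 without ♂M-1 replicate 1, and 0 without ♂M-1 replicate 2 or either array of ♂M-3. After median centring of the arrays 10 members were called for ♂M-3 against ZM-1, all higher. After quantile normalization 4 were higher and 2, Cyp51 and Scap, lower, and these 2 were also called as lower with a pseudocount of 16, with either filter on low values and with a prior variance that followed the level. After median centring the share of called genes that were higher went from 54.6% to 70.9% there and from 42.7% to 62.0% for ♂M-1 against ZM-1. In ♂M-3 against ZM-1, 3 of 10 embryonic stem cell markers were also higher and 11 of 13 fibroblast markers lower, and their part in the members' differences was not tested.

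**Figure D2:**
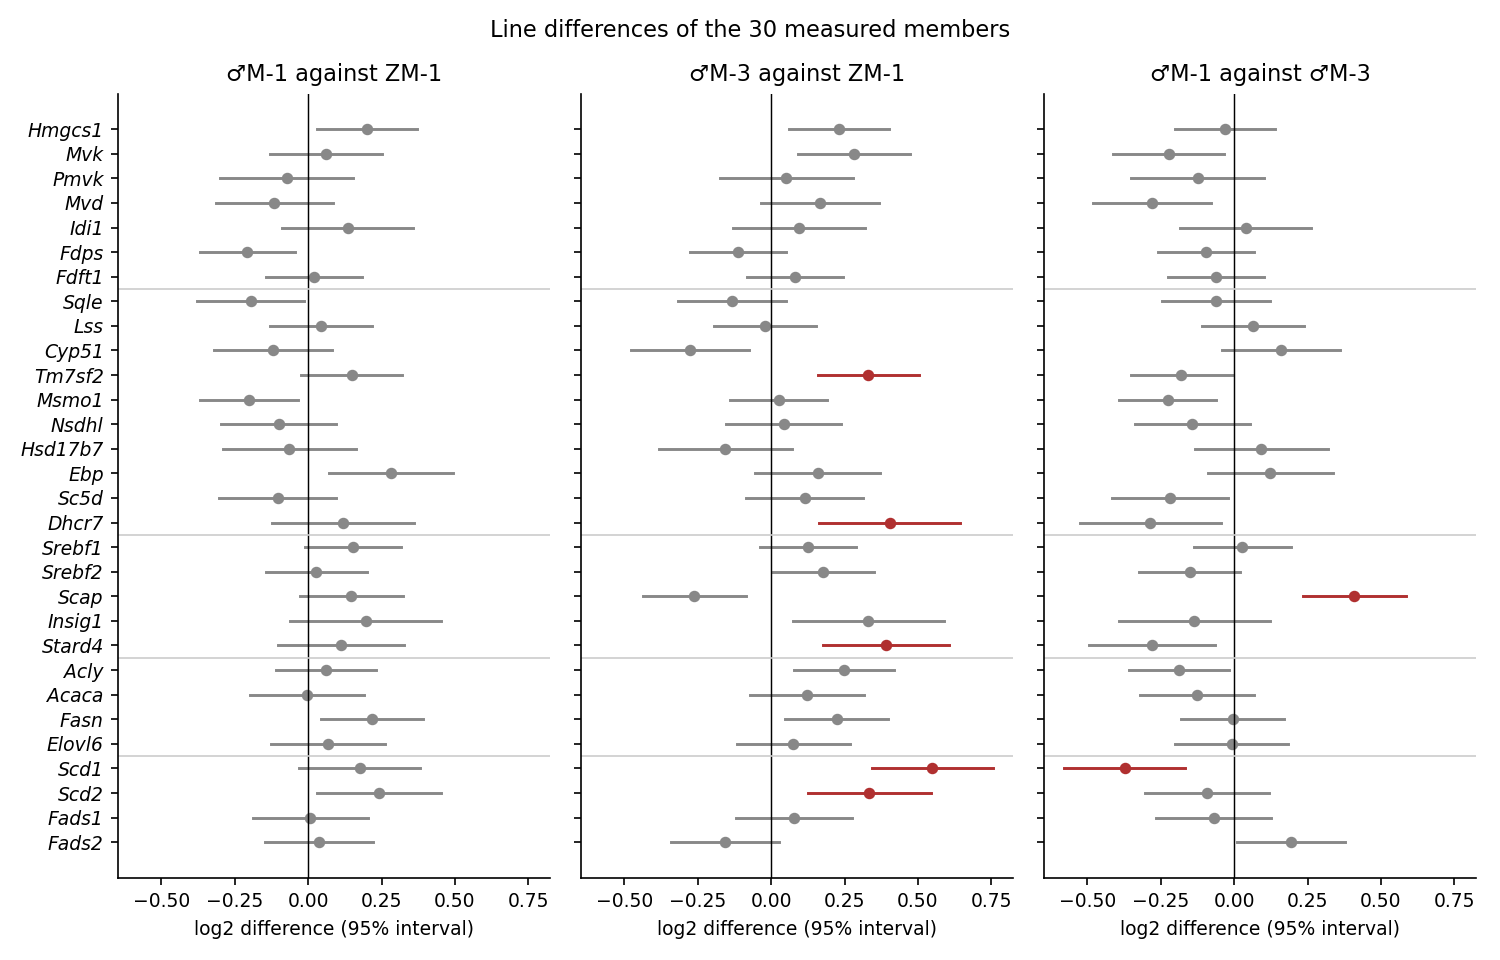
Log2 difference of each of the 30 measured members in the 3 pairs of lines, with its 95% confidence interval from the limma fit; red marks an adjusted p below 0.05 and grey lines separate the roles. There are 5 red intervals for ♂M-3 against ZM-1, all above 0, and 0 for ♂M-1 against ZM-1. For ♂M-1 against ♂M-3 there are 2, Scap above 0 and Scd1 below.

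Of the 7 measured enzymes from HMG-CoA synthesis to squalene, 0 were called in any pair of lines by limma, and 2 in each pair had an unadjusted p below 0.05. Hmgcs1, the HMG-CoA synthase that opens the pathway, read 1064 and 999 in ♂M-1, 1041 and 1068 in ♂M-3, and 904 and 891 in ZM-1. Both ♂M lines lay above ZM-1 with no overlap, at a log2 difference of 0.20 for ♂M-1 (95% interval 0.03 to 0.37, adjusted p = 0.184) and 0.23 for ♂M-3 (0.06 to 0.40, adjusted p = 0.0686). Mvk, the mevalonate kinase, read 353 and 342 in ♂M-1, 393 and 419 in ♂M-3, and 352 and 315 in ZM-1, with ♂M-3 apart from both other lines (adjusted p = 0.0519 against ZM-1 and 0.177 against ♂M-1). After median centring, Hmgcs1 and Mvk were called as higher in ♂M-3 than in ZM-1 (log2 difference 0.29 and 0.34).

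Idi1 isomerises the activated isoprene unit, and its arrays overlapped between all lines, at 534 and 609 in ♂M-1, 586 and 525 in ♂M-3, and 493 and 548 in ZM-1. Its other probe set gave a log2 difference of 0.14 for ♂M-1 and 0.13 for ♂M-3 against ZM-1, near the 0.13 and 0.10 of the brighter one. Mvd, the decarboxylase, read 438 and 454 in ♂M-1, 530.0 and 554 in ♂M-3, and 519 and 449.7 in ZM-1, so that ♂M-1 lay below both ♂M-3 arrays (log2 difference −0.28, adjusted p = 0.111). Fdps, the farnesyl diphosphate synthase, ran the other way to Hmgcs1 against ZM-1, at 1062 and 1077 in ♂M-1, 1138 and 1147 in ♂M-3, and 1243 and 1228 in ZM-1. Its log2 difference was −0.21 for ♂M-1 and −0.11 for ♂M-3, neither past the threshold (adjusted p = 0.151 and 0.339). Pmvk and Fdft1, the phosphomevalonate kinase and the squalene synthase, had log2 differences between −0.12 and 0.08 over the 3 pairs.

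Between squalene and cholesterol, 2 of 10 enzymes were higher in ♂M-3 than in ZM-1, and 0 were called by limma in the other pairs. Beside the 2 stood 8.66% of all genes and 15.13% of genes at least as bright as the lowest member. At an unadjusted p below 0.05 there were 2 higher and 1 lower for ♂M-3 against ZM-1, 1 higher and 2 lower for ♂M-1 against ZM-1, and 0 higher and 4 lower in ♂M-1 against ♂M-3. Dhcr7, the reductase that forms cholesterol from 7-dehydrocholesterol, read 539.8 and 481 in ♂M-1, 619.9 and 623 in ♂M-3, and 519 and 424 in ZM-1. Both ♂M-3 arrays lay above all 4 others, and the ♂M-3 repeats were closer together than those of ♂M-1 or ZM-1. It was 1.32-fold higher in ♂M-3 than in ZM-1 (log2 difference 0.40, SE 0.107, adjusted p = 0.0334), but did not pass with either repeat of ♂M-3 or repeat 2 of ZM-1 left out (adjusted p up to 0.15) and after quantile normalization (adjusted p = 0.0553). ♂M-1 against ♂M-3 gave a log2 difference of −0.29 (adjusted p = 0.173).

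Tm7sf2, a sterol reductase that acts just after lanosterol demethylation, read 198 and 189.6 in ♂M-1, 224 and 215 in ♂M-3, and 179 and 170.3 in ZM-1. The lines did not overlap and stood in the order ♂M-3, ♂M-1, ZM-1. ♂M-3 was 1.26-fold higher than ZM-1 (log2 difference 0.33, SE 0.076, adjusted p = 0.0196), but did not pass with either repeat of ♂M-3 or repeat 2 of ZM-1 left out (adjusted p up to 0.119). ♂M-1 differed from neither neighbour in that order past the threshold (adjusted p = 0.225 and 0.323).

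No other late enzyme was called. Cyp51, the lanosterol demethylase, read 485 and 561 in ♂M-1, 458 and 477 in ♂M-3, and 557 and 577 in ZM-1, so both ♂M-3 arrays were below those of ZM-1 (log2 difference −0.28, 95% interval −0.48 to −0.08, adjusted p = 0.0655); after quantile normalization it was called as lower in ♂M-3 (log2 difference −0.35, adjusted p = 0.0363). Sqle, the squalene epoxidase and a control point of the pathway, read 733 and 706 in ♂M-1, 754 and 748 in ♂M-3, and 868 and 782 in ZM-1. The log2 difference from ZM-1 was −0.20 in ♂M-1 and −0.13 in ♂M-3, with no overlap, and neither difference was called (adjusted p = 0.222 and 0.311). Msmo1, a sterol methyl oxidase, was lowest in ♂M-1, at 859.6 and 834 in ♂M-1, 997 and 983 in ♂M-3, and 958 and 989 in ZM-1 (adjusted p = 0.17 against ZM-1 and 0.119 against ♂M-3). Ebp, the sterol isomerase, read 229 and 208 in ♂M-1, 204 and 197 in ♂M-3, and 193 and 167 in ZM-1, with ♂M-1 above ZM-1 at a log2 difference of 0.28 (adjusted p = 0.137). For Lss, Nsdhl, Hsd17b7 and Sc5d the log2 differences lay between −0.22 and 0.11 in all pairs. The 10 enzymes had a median log2 difference of −0.08 for ♂M-1 and 0.03 for ♂M-3 against ZM-1.

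In the sterol sensing group, Stard4 and Scap passed the test, and the SREBP genes themselves did not. Stard4, a carrier that moves sterol between membranes, read 291 and 264 in ♂M-1, 315 and 359 in ♂M-3, and 267 and 246 in ZM-1. Both ♂M-3 arrays were above all others. It was 1.31-fold higher in ♂M-3 than in ZM-1 (log2 difference 0.39, SE 0.0946, adjusted p = 0.0235), but did not pass with repeat 2 of ♂M-3 or repeat 2 of ZM-1 left out (adjusted p up to 0.164). ♂M-1 lay between, with overlap of ZM-1 (adjusted p = 0.564).

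Scap, the escort of SREBP, differed in the opposite direction and read 475 and 518 in ♂M-1, 375 and 371 in ♂M-3, and 443 and 453 in ZM-1. Here ♂M-3 was below every other array, and ♂M-1 above every ZM-1 array. ♂M-1 was 1.33-fold higher than ♂M-3 (log2 difference 0.41, SE 0.0776, adjusted p = 0.0161), but did not pass with repeat 2 of ♂M-1 or either repeat of ♂M-3 left out (adjusted p up to 0.138). Against ZM-1, Scap in ♂M-3 had a log2 difference of −0.26 (95% interval −0.44 to −0.09, adjusted p = 0.0512), just short of a call, and after quantile normalization it was called as lower (−0.33, adjusted p = 0.0249).

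Srebf1, which favours fatty acid genes, read 426 and 418 in ♂M-1, 421 and 407 in ♂M-3, and 378 and 380.3 in ZM-1. ZM-1 lay below all ♂M arrays, by 0.15 log2 units from ♂M-1 and 0.13 from ♂M-3 (adjusted p = 0.284 and 0.291). Srebf2, which favours cholesterol genes, was highest in ♂M-3, at 1202 and 1127 in ♂M-1, 1274 and 1312 in ♂M-3, and 1161 and 1125 in ZM-1 (log2 difference 0.18 against ZM-1, adjusted p = 0.153). Insig1, the retention protein and SREBP target, read 1021 and 852 in ♂M-1, 1025 and 1023 in ♂M-3, and 895 and 741 in ZM-1. The repeats of ♂M-1 and of ZM-1 lay apart by more than those of ♂M-3, and the log2 difference of 0.33 between ♂M-3 and ZM-1 had an interval of 0.07 to 0.59 (adjusted p = 0.0832). It was called after median centring (log2 difference 0.39, adjusted p = 0.0411).

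Of the 4 genes of fatty acid synthesis, 0 were called in any pair by limma, with an unadjusted p below 0.05 for 2 of them in ♂M-3 against ZM-1 and for 1 in each of the other pairs, and all 4 had a log2 difference above 0 for ♂M-3 against ZM-1. Acly, which makes cytosolic acetyl-CoA from citrate, read 1475 and 1419 in ♂M-1, 1677 and 1619.6 in ♂M-3, and 1423 and 1352 in ZM-1. Both ♂M-3 arrays were the highest (log2 difference 0.25 against ZM-1, 95% interval 0.08 to 0.42, adjusted p = 0.0554). Fasn, the fatty acid synthase, read 1928 and 1981 in ♂M-1, 2044 and 1882 in ♂M-3, and 1689 and 1672 in ZM-1, so ZM-1 lay below both ♂M lines, which overlapped each other. Its log2 difference against ZM-1 was 0.22 in ♂M-1 and 0.22 in ♂M-3 (adjusted p = 0.161 and 0.0854). Acly and Fasn were called as higher in ♂M-3 than in ZM-1 after median centring (0.31 and 0.28). Acaca, the acetyl-CoA carboxylase that commits carbon to fatty acids, read 489 and 517 in ♂M-1, 567 and 532 in ♂M-3, and 476 and 534 in ZM-1, with overlap of both ♂M lines with ZM-1. Its dimmer probe set gave a log2 difference of 0.35 between ♂M-3 and ZM-1, against 0.12 in the brighter one. Elovl6, which lengthens saturated chains, read 2826 and 2653 in ♂M-1, 2652 and 2861 in ♂M-3, and 2745 and 2489 in ZM-1, and the arrays of ZM-1 overlapped those of both other lines.

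The desaturases held the largest difference of the set. Scd1, which puts the first double bond into stearoyl-CoA and palmitoyl-CoA, read 1910.1 and 1958 in ♂M-1, 2690.2 and 2333 in ♂M-3, and 1785 and 1641 in ZM-1. Both ♂M-3 arrays were above all others, and ♂M-1 lay above ZM-1 without overlap. Scd1 was 1.46-fold higher in ♂M-3 than in ZM-1 (log2 difference 0.55, SE 0.0912, adjusted p = 0.00464), and passed again with each array left out in turn (adjusted p between 0.00922 and 0.0420) and under each of the 9 other alternatives (5.04e-05 to 0.0355). In ♂M-1 it was 1.29-fold lower than in ♂M-3 (log2 difference −0.37, SE 0.0912, adjusted p = 0.044), but did not pass with either repeat of ♂M-1 or either repeat of ♂M-3 left out (adjusted p up to 0.269). ♂M-1 and ZM-1 were not separated (log2 difference 0.18, 95% interval −0.03 to 0.38, adjusted p = 0.33).

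Scd2, the paralog of Scd1 that is best known from brain, read 3283 and 2912 in ♂M-1, 3491 and 3114 in ♂M-3, and 2692 and 2541 in ZM-1. The ♂M lines overlapped each other and both lay above ZM-1. ♂M-3 was 1.26-fold higher than ZM-1 (log2 difference 0.33, SE 0.093, adjusted p = 0.0408), but did not pass with either repeat of ♂M-3 or either repeat of ZM-1 left out (adjusted p up to 0.23). For ♂M-1 against ZM-1 the log2 difference was 0.24 (adjusted p = 0.193). Whether probes of Scd1 and Scd2 also capture transcripts of each other was not tested.

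The desaturases of polyunsaturated fatty acids were not called. Fads1 read 1225 and 1081 in ♂M-1, 1228 and 1188 in ♂M-3, and 1186 and 1104 in ZM-1, with overlap between ♂M-1 and both other lines, and its log2 differences lay between −0.07 and 0.08. Fads2 read 1271 and 1137 in ♂M-1, 1033 and 1069 in ♂M-3, and 1167 and 1176 in ZM-1. Here ♂M-3 was the lowest line, at a log2 difference of −0.16 against ZM-1 (adjusted p = 0.241), and ♂M-1 was 0.19 above ♂M-3 (adjusted p = 0.228).

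**Figure D3:**
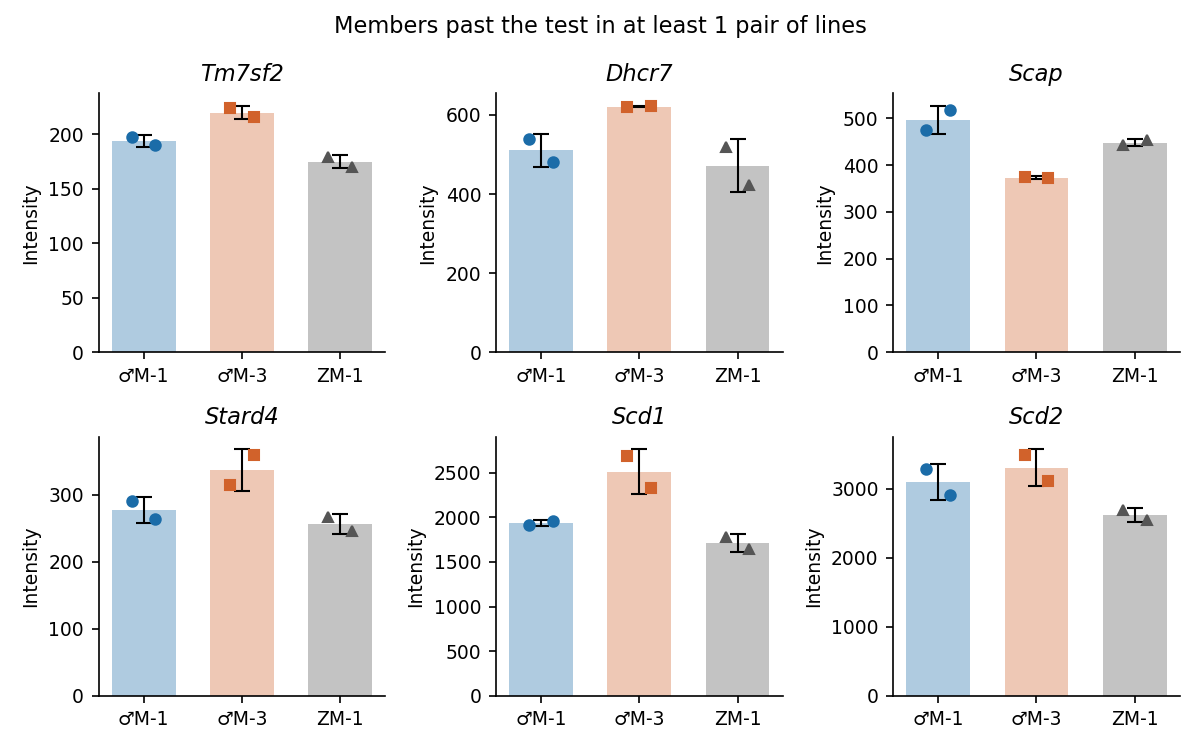
Intensity of the 6 members called in at least 1 pair of lines; points are the 2 arrays of a line, bars their mean and error bars the SD (n = 2), on axes that start at 0. The ♂M-3 bar is the highest in Tm7sf2, Dhcr7, Stard4, Scd1 and Scd2 and the lowest in Scap.

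Absence of a call does not show that a member was equal between lines. Over the members not called, the 95% interval of a difference had a median half-width of 0.19 log2 units in each pair, and the interval bound farthest from 0 was 0.49 for ♂M-1 against ZM-1, 0.59 for ♂M-3 against ZM-1 and 0.53 for ♂M-1 against ♂M-3.

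Genes around the synthesis pathway were read from further lists, with the same test. Of 32 genes of sterol uptake, storage and control, 20 were measured and the others were not analysed here. In ♂M-3 against ZM-1, 3 of the 20 were higher and 0 lower, beside 8.66% and 7.20% of all genes and, among genes as bright as the members, 15.13% and 6.94%, so the count was near the background. There were 6 higher and 1 lower at an unadjusted p below 0.05. In ♂M-1 against ♂M-3, 0 of the 20 were called as higher and 2 as lower, beside 3.22% and 3.32% of all genes. Rnf139, a ubiquitin ligase of the endoplasmic reticulum, read 179 and 199.8 in ♂M-1, 248 and 237 in ♂M-3, and 169.5 and 161 in ZM-1, 1.47-fold higher in ♂M-3 than in ZM-1 (adjusted p = 0.00294), and passed again with each array left out in turn. Osbpl1a, a relative of the oxysterol-binding protein, was 1.32-fold higher (adjusted p = 0.0218), but did not pass with repeat 2 of ♂M-3 or repeat 2 of ZM-1 left out (adjusted p up to 0.152). Syvn1, the ligase of protein quality control in the same organelle, was 1.25-fold higher (adjusted p = 0.0336), but did not pass with either repeat of ♂M-1, either repeat of ♂M-3 or repeat 2 of ZM-1 left out (adjusted p up to 0.155). Rnf139 and Osbpl1a were also the 2 genes lower in ♂M-1 than in ♂M-3 (adjusted p = 0.0385 and 0.0181); the first did not pass with any array of ♂M-1 or ♂M-3 left out, nor the second with either array of ♂M-1 or replicate 2 of ♂M-3 left out (adjusted p up to 0.209 and 0.158).

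The isoprenoid branch, which uses farnesyl diphosphate for prenylation and for ubiquinone, had 4 of 12 genes higher in ♂M-3 than in ZM-1 and 0 lower, beside 8.66% and 7.20% of all genes and 15.13% and 6.94% of genes as bright as the members, and 1 was lower at an unadjusted p below 0.05. Fntb, the beta subunit of farnesyltransferase, read 303 and 287 in ♂M-1, 376 and 381 in ♂M-3, and 267 and 235 in ZM-1. Its ♂M-3 arrays were above all others, and ♂M-3 was 1.51-fold above ZM-1 (adjusted p = 0.00236), and passed again with each array left out in turn. Coq2, the prenyltransferase of ubiquinone synthesis, read 209 and 170.2 in ♂M-1, 239 and 238 in ♂M-3, and 161 and 164 in ZM-1 (adjusted p = 0.00711), and passed again with each array left out in turn. Rabggtb and Rabggta, subunits of the enzyme that prenylates Rab proteins, were 1.42-fold and 1.23-fold higher (adjusted p = 0.0077 and 0.0318). Rabggtb did not pass with replicate 1 of ♂M-3 left out, nor Rabggta with either array of ♂M-3 or replicate 2 of ZM-1 left out (adjusted p up to 0.0652 and 0.159). Fntb was also lower in ♂M-1 than in ♂M-3 (adjusted p = 0.0406), but did not pass with either repeat of ♂M-1 or either repeat of ♂M-3 left out (adjusted p up to 0.249).

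In sterol efflux and the LXR pathway, Abca1 differed by more log2 units than any member. It encodes the transporter that loads cholesterol onto apolipoproteins and is an LXR target, and it read 183 and 196 in ♂M-1, 94.0 and 97.3 in ♂M-3, and 201 and 210.1 in ZM-1. Both ♂M-3 arrays were less bright than any other array, by a factor of 2.14 against ZM-1 (log2 difference −1.10, SE 0.0771, adjusted p = 5.13e-05) and 1.97 against ♂M-1 (adjusted p = 2.28e-04), and both calls were kept whichever array was left out. Pltp, the phospholipid transfer protein, was higher in both ♂M lines, at 946 and 904 in ♂M-1, 903 and 884 in ♂M-3, and 584 and 540.3 in ZM-1 (adjusted p = 0.00145 for ♂M-1 and 7.71e-04 for ♂M-3), likewise kept. Of the 13 genes in this list, these were the 2 called in any pair. In ♂M-3 against ZM-1 that is 1 higher and 1 lower, beside 8.66% and 7.20% of all genes, so the count was near the background. Among 8 enzymes of oxysterol and bile acid synthesis, 1 was higher in ♂M-3 than in ZM-1 and 0 lower, beside the same shares. This was Cyp39a1, an oxysterol hydroxylase, 1.69-fold higher, at 99.0 and 90.4 in ♂M-1, 130.0 and 119.7 in ♂M-3, and 79.3 and 68.2 in ZM-1 (adjusted p = 0.00128). It passed again with each array left out in turn. It was also lower in ♂M-1 than in ♂M-3 (adjusted p = 0.0441), but did not pass with either repeat of ♂M-1 or either repeat of ♂M-3 left out (adjusted p up to 0.28). The fibroblast markers, 11 of 13 lower in ♂M-3, moved the same way as Abca1 there, and their part in the result was not tested.

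Beyond the members, 8 of 34 genes of fatty acid synthesis and elongation were higher in ♂M-3 than in ZM-1 and 0 lower, beside the same shares of all genes (8.66% and 7.20%) and of bright genes (15.13% and 6.94%), and 3 were lower at an unadjusted p below 0.05. Acss1, the mitochondrial acetyl-CoA synthetase, read 221 and 227 in ♂M-1, 544 and 505 in ♂M-3, and 254 and 223 in ZM-1, so ♂M-3 was 2.20-fold above ZM-1 (log2 difference 1.14, SE 0.0884, adjusted p = 9.30e-05) and 2.33-fold above ♂M-1 (adjusted p = 1.72e-04), both kept whichever array was left out. Acss2, its cytosolic counterpart and an SREBP target, read 162 and 159 in ♂M-1, 237 and 236 in ♂M-3, and 201 and 183 in ZM-1. It was less bright in ♂M-1 than in ♂M-3 by 0.56 log2 units (adjusted p = 0.00402), and passed again with each array left out in turn. Also, it was 1.24-fold higher in ♂M-3 than in ZM-1 (adjusted p = 0.0301), but did not pass with either repeat of ♂M-3 or repeat 2 of ZM-1 left out (adjusted p up to 0.134). Slc25a1, the carrier that exports citrate from mitochondria, read 2102 and 2039 in ♂M-1, 2425 and 2431 in ♂M-3, and 1895 and 1760.2 in ZM-1 (adjusted p = 0.00783 for ♂M-3 against ZM-1), but did not pass with either repeat of ♂M-3 left out (adjusted p up to 0.0557). Mlxipl, the carbohydrate-responsive factor ChREBP, was 1.47-fold higher in ♂M-3 than in ZM-1 (adjusted p = 0.00489), and passed again with each array left out in turn. Mecr, a reductase of mitochondrial fatty acid synthesis, was 1.35-fold higher (adjusted p = 0.00772), but did not pass with repeat 1 of ♂M-3 left out (adjusted p up to 0.0558).

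**Figure D4:**
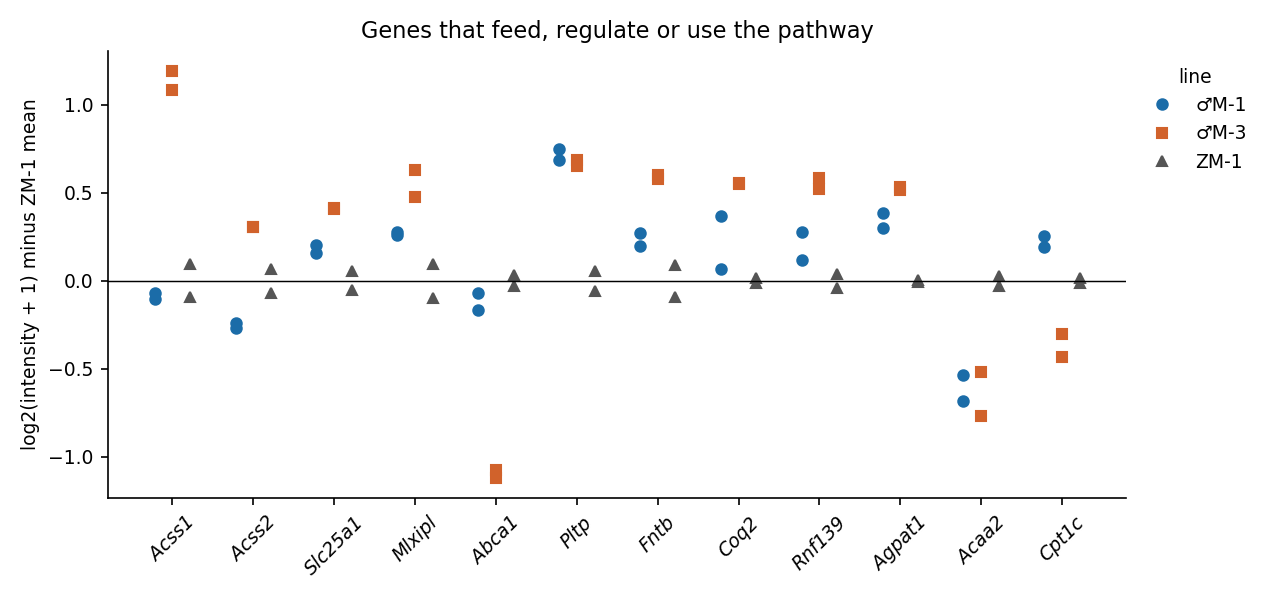
Log2 of the intensity plus 1 for 12 genes that feed, control or use the pathway, relative to the ZM-1 mean of each gene; each symbol is 1 array, and all 12 passed the test in at least 1 pair of lines. Acss1 stands above 1 log2 unit and Abca1 below −1 in both ♂M-3 arrays, whereas Pltp and Acaa2 are displaced in both ♂M lines.

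Genes that use fatty acids were called in both directions. In glycerolipid synthesis, with 21 genes measured, 1 was higher and 2 lower in ♂M-3 than in ZM-1, beside 8.66% and 7.20% of all genes, and 1 was higher in ♂M-1, beside 1.89%. At an unadjusted p below 0.05, 5 were higher and 2 lower in ♂M-3, and 2 higher and 2 lower in ♂M-1. Agpat1, an acyltransferase of phosphatidic acid synthesis, was the one higher in both, at 736 and 696 in ♂M-1, 808 and 818 in ♂M-3, and 562 and 567 in ZM-1 (adjusted p = 0.00203 for ♂M-3 and 0.0369 for ♂M-1). The ♂M-3 call was kept with any array left out, and the ♂M-1 call with none of them (adjusted p up to 0.172). Agpat4, another member of that family, was 1.43-fold lower in ♂M-3 than in ZM-1 (adjusted p = 0.0142), but did not pass with repeat 1 of ♂M-3 or repeat 1 of ZM-1 left out (adjusted p up to 0.0982). Lpin3, a phosphatidic acid phosphatase, was 1.30-fold lower (adjusted p = 0.00924), but did not pass with either repeat of ♂M-3 left out (adjusted p up to 0.0609). Between ♂M-1 and ♂M-3, Agpat4 was higher and Gpat2, a glycerol phosphate acyltransferase, lower in ♂M-1 (adjusted p = 0.0119 and 0.0146). The first did not pass with either array of ♂M-1 or replicate 1 of ♂M-3 left out, and the second with replicate 2 of either line left out (adjusted p up to 0.0943 and 0.133).

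In fatty acid oxidation, with 23 genes measured, 0 were higher and 3 lower in ♂M-3 than in ZM-1, against 4 and 4 at an unadjusted p below 0.05, and 1 was lower in ♂M-1. Of all genes 8.66% were higher and 7.20% lower in ♂M-3, and 2.53% lower in ♂M-1. Among genes as bright as the members the shares were 15.13%, 6.94% and 2.17%. The lower counts were above these shares and the 0 higher below both. The counts are too small to be read as a difference from the shares. Acaa2, the mitochondrial thiolase, was lower in both ♂M lines, at 548 and 493 in ♂M-1, 465 and 554 in ♂M-3, and 808 and 778 in ZM-1 (adjusted p = 0.012 for ♂M-1 and 0.0035 for ♂M-3). The ♂M-3 call was kept with any array left out, and the ♂M-1 call failed once replicate 2 of ♂M-1 was left out (adjusted p = 0.116). Cpt1c, the form of carnitine palmitoyltransferase known from neurons, read 449.7 and 469.9 in ♂M-1, 292 and 319.9 in ♂M-3, and 391 and 398 in ZM-1. It was lower in ♂M-3 than in ZM-1 (adjusted p = 0.0154), but did not pass with repeat 1 of ♂M-3 or repeat 2 of ZM-1 left out (adjusted p up to 0.115), and higher in ♂M-1 than in ♂M-3 (adjusted p = 0.00329), and passed again with each array left out in turn. Pparg, a nuclear receptor of lipid storage, was 1.31-fold lower in ♂M-3 than in ZM-1 (adjusted p = 0.0176), but did not pass with repeat 2 of ♂M-3 or repeat 2 of ZM-1 left out (adjusted p up to 0.134). Of the 6 adipocyte markers, Adipoq, Fabp4 and Plin1 were lower there too, and Lpl was higher. The means of Adipoq (14.1 in ♂M-3 and 18.8 in ZM-1) and Fabp4 (13.1 and 23.4) lay below the lower quartile of every array. Of 13 fibroblast markers 11 were lower and 1 higher. The part of these markers in the Pparg difference was not tested. Cpt1a, the form that admits fatty acids to mitochondria in most tissues, was 1.27-fold lower in ♂M-1 than in ♂M-3 (adjusted p = 0.0482), but did not pass with either repeat of ♂M-1 or either repeat of ♂M-3 left out (adjusted p up to 0.295).

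For ♂M-1 against ZM-1, 0 genes of the sterol, isoprenoid, oxysterol and fatty acid synthesis lists were called by limma. At an unadjusted p below 0.05 the sterol list had 2 higher and 2 lower, the isoprenoid list 2 higher, the oxysterol list 1 higher and the fatty acid list 7 higher and 3 lower. Of all genes 20.0% reached that level there. Of the 35 called differences of the 23 genes named from these lists, 15 were also called under all 15 alternatives. The other 20 called differences were each lost in at least 1 alternative, and after quantile normalization the calls for Syvn1 and Rabggta in ♂M-3 against ZM-1, Agpat1 in ♂M-1 against ZM-1, and Rnf139, Fntb and Cpt1a in ♂M-1 against ♂M-3 were lost.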

How the data were processed

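RNA of 3 lines, each with 2 biological repeats, was hybridised to whole-transcript arrays. The authors deposited 1 linear intensity per probe set for each array, and no 2 arrays were identical. The submitters' processing notes name GCOS 1.4; the background correction and normalization used upstream are not given in the sources. Of 35556 probe sets, 21789 carried 1 gene symbol in the platform annotation, 1621 several and 12146 none. With 6 arrays, precision is limited by their number.

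Deposited intensities were taken as log2(intensity + 1) and fitted with limma 3.58.1 in R 4.3.3, with 1 mean per line (3 residual and 6.01 prior degrees of freedom), two-sided tests and Benjamini-Hochberg adjustment over 19938 genes at a threshold of 0.05. The script was tested on simulated data. The p-values cover variation between the repeats of each line alone. The members and lists were chosen with earlier results of these data known. Members called in any pair of lines, and 14 chosen members, were named with every array. Of each further list, up to 5 called genes with the smallest adjusted p were named. Alternatives changed the pseudocount, scaling, filter on low values, probe set rule, features tested, prior variance, replicate block and arrays. Protein sequences were not used here.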

Additional observations from a re-analysis of the deposited data

How the results depend on the processing

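The counts of members called were 0 for ♂M-1 against ZM-1, 5 for ♂M-3 against ZM-1 and 2 for ♂M-1 against ♂M-3, and those of all genes 880, 3162 and 1303. No named difference changed its side of 0 while called. With all 35556 probe sets tested, the members called were 0, 1 and 0. Of the 19938 genes, each counted by its chosen probe set alone, 170, 1296 and 301 were called in that fit. With a prior variance that followed the level, the members called were 4, 13 and 5, and 1632 genes were called for ♂M-1 against ZM-1. For ♂M-3 against ZM-1, 11 members were called with a pseudocount of 16, 10 after median centring, 10 among genes above the 25th percentile and 12 among those above the 50th, where ♂M-1 against ♂M-3 had 5. Leaving out 1 array at a time gave 0 members and 234 to 631 genes for ♂M-1 against ZM-1, 1 to 6 members and 1302 to 2750 genes for ♂M-3 against ZM-1, and 0 to 2 members and 357 to 1495 genes for ♂M-1 against ♂M-3. Arrays with the same replicate number did not deviate together (correlations 0.018, 0.054 and −0.137 across 9969 genes). With the number as a replicate block the members called were 0, 5 and 1, the loss being Scd1, and the genes 686, 2769 and 1071. Apart from fewer arrays or other genes entering a fit, the cause of these changes was not tested. With 2 arrays per line, differences of 0.19 log2 units lay within the median interval.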
